A study of Schmidtea mediterranea with 24 samples.

Results

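The genes described here are 139 transcripts of the planarian flatworm Schmidtea mediterranea that were read more often in mmp-1+ cells than in mmp-1- cells at every time studied and whose level in mmp-1+ cells was similar in intact worms and 48 h after amputation. They were chosen by measured values from 36035 identifiers. For each group of libraries the mean CPM (the count divided by all counts in genes, scaled to 1000000) was put on a log2(CPM + 1) scale, and d is the value in mmp-1+ cells minus that in mmp-1- cells of the same time. A highest group mean of 10 CPM was reached by 10978 identifiers, and 179 of these had a d of 0.8 or more at all 3 times (intact, 6 h and 48 h). In 139 of the 179 the mmp-1+ level at 48 h was within 0.585 of the intact level on the log2 scale. Of the other 40, 14 were higher and 26 lower at 48 h. The rule allowed up to 150 genes, so that limit removed none. Sort differences, and 48 h against intact in mmp-1+ cells, are thus given as a description and without a test.

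The animals of the samples described here were wild type. The 2 single-cell samples of the series, labelled as unc22 and tubA RNAi, were not used. Sorted cells came from mmp-1+ and mmp-1- populations of tail fragments at 48 h and at 6 h after amputation and of intact worms, with 3 libraries in each of the 6 groups. Each replicate pooled 100 worms starved for 11 days, and 1000 fixed cells per population were sorted on the fluorescence of a probe against mmp-1. Intact samples are whole worms and later samples are tails, so a difference from intact contains both the part of the body and the injury, which cannot be told apart. The other data are 4 Slide-seqV2 sections, in which barcoded beads of known position capture the RNA of a tissue slice: 2 adjacent sections of 1 frozen block at 48 h and 2 of 1 block at 6 h, each block holding 8 to 9 tail fragments around 1 intact animal. In libraries of pooled cells, fewer cells of a type and less RNA per cell cannot be told apart.

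Planarians rebuild missing parts from a population of dividing stem cells that lie in the tissue between the gut, muscle and epidermis. Matrix metalloproteinases such as mmp-1 belong to a family of secreted, zinc-dependent enzymes that cut proteins of the extracellular matrix, the scaffold in which these stem cells and their neighbours sit. The series asked what surrounds the stem cells and how those surroundings respond to amputation. The files give SMED30 identifiers without gene names, so mmp-1 itself and markers of other cell types were not analysed here, the identity of the sorted cells was not checked against markers, and no function is stated for any member. No sequence is shown because none of the files used here holds one.

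Each mmp-1+ library held between 52969393 and 66114382 counts in genes and each mmp-1- library between 55497823 and 63524266. Some libraries stood apart in the members. Members in mmp-1+ intact replicate 2 had a median deviation of -0.68 (log2) from the mean of their group, against 0.004 over 9709 genes with at least 10 CPM. The 17 members with the largest d deviated by a median of -1.94, 1.18 and -1.28 in the 3 intact mmp-1- libraries and by -1.06 in mmp-1- 48 h replicate 1. Among mmp-1- libraries of intact worms replicate 2 was thus the high one, whereas mmp-1+ intact replicate 2 was low. For these 17 the intact mmp-1+ libraries deviated by 0.24, -0.92 and 0.38, opposite in sign to the mmp-1- library of the same number. At 48 h replicates 1 and 2 each had the same sign in both populations. The cause was not tested. The member list and the calls against intact worms are also given without intact replicate 2. In contrast, d, shares and correlations are given with all libraries.

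The members made up a sizeable part of the RNA of mmp-1+ cells. In mmp-1+ cells their summed share of gene counts was 12.7% ± 4.31 for intact worms, 16.0% ± 1.30 for 6 h tails and 12.5% ± 2.16 for 48 h tails (SD, n = 3 each). In mmp-1- cells it was 0.784% ± 0.390, 1.05% ± 0.330 and 0.685% ± 0.180 at the same times (SD, n = 3 each). The lowest mmp-1+ share, 7.78% in intact replicate 2, was still above the highest mmp-1- share of 1.43%. Much of it came from few genes: SMED30019930, SMED30019680, SMED30007813, SMED30019357 and SMED30005188, the 5 with the highest mean CPM in mmp-1+ libraries, held 70.9% to 74.7% of the members' reads in the 9 mmp-1+ libraries and 10.0% to 50.2% in the 9 mmp-1- libraries.

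The size of the sort difference varied widely. The smallest d of a member over the 3 times had a median of 1.73, with quartiles of 1.10 and 2.83 and a range of 0.80 to 5.08. It was 4 or more in 17 members, 2 to 4 in 41 and under 2 in 81. The intact comparison gave the smallest d in 77 members, the 6 h comparison in 33 and the 48 h comparison in 29. The mmp-1+ level at 48 h minus that in intact worms had a median of -0.16 (log2) and quartiles of -0.33 and 0.06.

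The per-library values below are CPM scaled by TMM, edgeR's correction for differences in composition between libraries. The member with the largest smallest d was SMED30019930. It had 33458, 15702 and 36556 CPM in the mmp-1+ libraries of intact worms, 43582, 31930 and 35870 at 6 h, and 19920, 29238 and 21829 at 48 h. In the mmp-1- libraries it had 23, 1106 and 12.4 CPM in intact worms, 452, 556 and 1492 at 6 h, and 54.1, 650 and 415 at 48 h. Every mmp-1+ library was far above every mmp-1- library, while the mmp-1- values themselves spread widely within each time. Its d was 5.94 for intact worms, 5.08 for 6 h tails and 5.65 for 48 h tails.

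SMED30019680 had 30320, 12989 and 33108 CPM in the intact mmp-1+ libraries, 39223, 30128 and 32980 at 6 h, and 21001, 29840 and 22448 at 48 h. Its mmp-1- levels were 50.7, 988 and 40.8 CPM in intact worms, 515, 548 and 1430 at 6 h, and 75, 703 and 430 at 48 h. The libraries that were high or low for SMED30019930 were high or low for this gene too. SMED30007813 had 19509, 9061 and 23969 CPM in the intact mmp-1+ libraries, 30078, 21812 and 25101 at 6 h, and 19582, 25694 and 16689 at 48 h. Its mmp-1- levels were 24.3, 760 and 18.9 CPM in intact worms, 432, 449 and 1208 at 6 h, and 40.6, 598 and 374 at 48 h. Both genes had their lowest mmp-1+ value in intact replicate 2 and their highest mmp-1- value in 6 h replicate 3.

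SMED30019357 averaged 18383 ± 7559, 24997 ± 4053 and 16150 ± 3578 CPM in mmp-1+ libraries (intact, 6 h and 48 h), against 485 ± 424, 883 ± 399 and 393 ± 192 CPM in their mmp-1- counterparts (mean ± SD, n = 3 each). SMED30005188 averaged 14253 ± 5653, 20900 ± 2567 and 14562 ± 3943 CPM in mmp-1+ cells at those times, against 420 ± 403, 733 ± 302 and 354 ± 189 CPM in their mmp-1- counterparts (mean ± SD, n = 3 each). For these, too, no mmp-1+ library overlapped an mmp-1- library. The rule chose the members by this difference, so the lack of overlap only describes them.

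Members with fewer reads showed the same contrast, which the rule asked of every member. SMED30003191 had 629, 267 and 695 CPM in the intact mmp-1+ libraries, 814, 721 and 731 at 6 h, and 470, 652 and 533 at 48 h. Its mmp-1- levels were 0.163, 19.3 and 0.0886 CPM in intact worms, 9.44, 12.1 and 30.3 at 6 h, and 1.06, 15.5 and 8.56 at 48 h. In 2 of the 3 intact mmp-1- libraries it was therefore close to absent, and in replicate 2 it was not. SMED30002195 averaged 399 ± 169, 528 ± 97.3 and 338 ± 93.0 CPM in mmp-1+ libraries (intact, 6 h and 48 h), against 6.26 ± 8.46, 14.8 ± 8.96 and 6.10 ± 4.32 CPM in their mmp-1- counterparts (mean ± SD, n = 3 each). Its 3 intact mmp-1- values were 1.38, 16.0 and 1.36 CPM.

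The remaining members of the leading 10 were SMED30014052, SMED30014062, SMED30022629, SMED30026378 and SMED30019227, with a smallest d between 4.51 and 4.92. SMED30014052 averaged 1161 ± 471, 1608 ± 234 and 924 ± 217 CPM in mmp-1+ libraries (intact, 6 h and 48 h), against 18.3 ± 25.2, 39.7 ± 23.5 and 17.5 ± 13.3 CPM in their mmp-1- counterparts (mean ± SD, n = 3 each). SMED30014062 had its highest mmp-1+ mean at 48 h: it averaged 914 ± 408, 1134 ± 85.0 and 1287 ± 291 CPM there, against 16.3 ± 19.0, 33.5 ± 12.1 and 21.2 ± 14.9 CPM in their mmp-1- counterparts (mean ± SD, n = 3 each). At 0.55 (log2), its 48 h to intact difference in mmp-1+ cells was the highest of the members, just inside the limit. In the other 9 of this leading group that difference lay between -0.28 and 0.29. All 10 had their smallest d at 6 h, where their mmp-1- means were highest.

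The values at the edges of the rule were small. The last 3 members inside the sort limit were SMED30018151, SMED30024623 and SMED30015758, with smallest d of 0.82, 0.80 and 0.80. SMED30015758 averaged 97.0 ± 22.1, 99.2 ± 8.85 and 100.1 ± 12.6 CPM in mmp-1+ libraries (intact, 6 h and 48 h), against 44.4 ± 10.2, 39.3 ± 2.06 and 41.7 ± 2.60 CPM in their mmp-1- counterparts (mean ± SD, n = 3 each). The first 3 genes outside it, SMED30004942, SMED30000524 and SMED30019483, each had 0.79. On the stability side, SMED30021987, SMED30034767 and SMED30012987 were the last inside with 48 h minus intact of -0.56, -0.57 and -0.57 in mmp-1+ cells, and SMED30010954, SMED30002141 and SMED30034265 the first outside with -0.59 in each. The list depended on mmp-1+ intact replicate 2: without it the rule took 125 genes, of which 112 are members. With TMM-scaled CPM in the rule, 230 genes passed, and the 150 then taken included 134 members.

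The pattern of the top member was shared closely by others. Over the 18 libraries, log2(CPM + 1) of SMED30019930 had a Pearson correlation of 0.998 with SMED30007813, 0.997 with SMED30019680, 0.995 with SMED30003191, 0.987 with SMED30014052 and 0.983 with SMED30002195, the 5 highest. These libraries share the sort difference, which the rule selected. Within the 9 mmp-1- libraries the correlation with the top member had a median of 0.94 in the other 16 members with d of 4 or more, with a lowest of 0.75. The median was 0.49 in the 41 members with d of 2 to 4 and 0.28 in the 81 with d under 2. These correlations describe libraries in which the genes share the sort and the depth.

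The 17 members with d of 4 or more moved as a block among the mmp-1- libraries. As a percentage of their mmp-1+ mean at the same time, they had a median of 0.402%, 4.86% and 0.669% in the 3 intact mmp-1- libraries, 2.05%, 2.38% and 5.04% at 6 h, and 0.871%, 2.93% and 2.02% at 48 h. In intact replicate 2 all 17 lay between 3.65% and 6.52%, whereas in replicate 1 they lay between 0.0307% and 2.29% and in replicate 3 between 0.0167% and 2.84%. Those ranges do not overlap. Over the mmp-1- libraries members with d of 2 to 4 had medians of 5.75% to 13.7% and members with d under 2 medians of 24.9% to 36.6%. As a ratio of highest to lowest these classes varied less, and in percentage points they varied more. Intact replicate 2 was the highest intact library there too. It had 13.7% against 8.42% and 7.22% for d of 2 to 4, and 36.6% against 30.8% and 28.8% for d under 2. The part that mmp-1+ cells in the mmp-1- gate may have in these values was not tested.

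**Figure D1:**
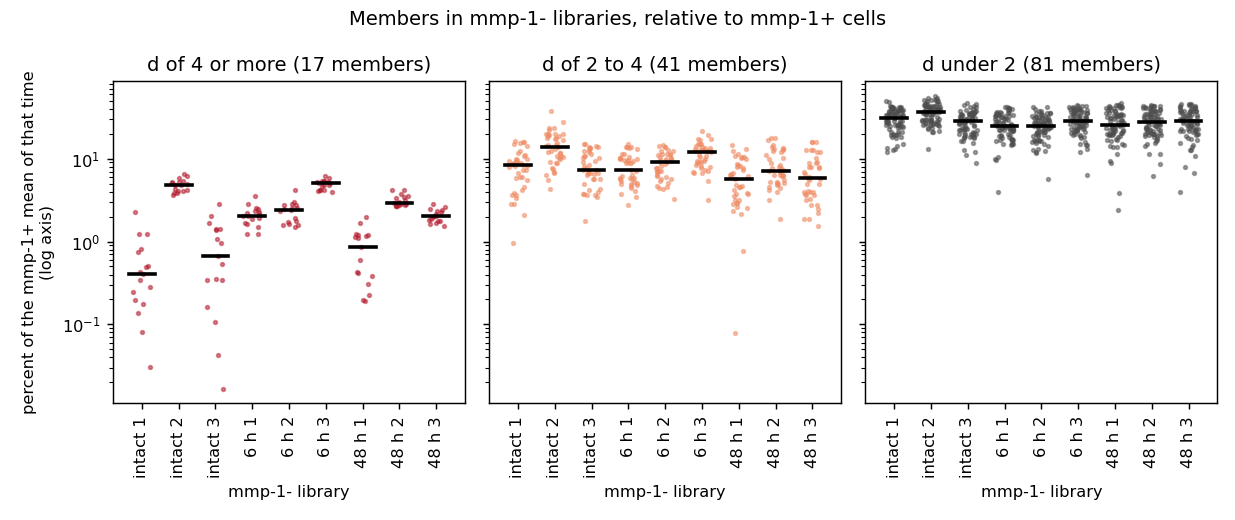
Level of each member (points) in the 9 mmp-1- libraries as a percentage of its mean in mmp-1+ cells of the same time, on a log axis, in 3 panels by d; black lines are medians. In the left panel the members with d of 4 or more shift together, with medians between 0.402% (intact replicate 1) and 5.04% (6 h replicate 3).

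The time comparisons asked whether the members' levels changed after amputation. The 5 contrasts tested are those the rule did not fix, although their libraries entered it through d. A level that was high in mmp-1- cells or low in mmp-1+ cells at any time could keep a gene out. The shares of all genes given beside the counts of members carry no such choice. The part of the choice in the members' counts and medians was not tested. In edgeR's quasi-likelihood test, with Benjamini-Hochberg adjustment over all 31435 genes that passed the filter on low counts, an adjusted p under 0.05 was called, and the log2 changes given are its fold changes, later time over earlier. All 139 members passed that filter, and 81 of them were called in none of the 5 contrasts. Those 81 were 16 of the 17 with d of 4 or more, 15 of the 41 with d of 2 to 4 and 50 of the 81 with d under 2. The share of all genes called in none was not computed. Between 6.52% and 17.6% of all genes were called per contrast, so the 81 do not show that members were steadier than other genes.

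At 6 h against intact worms, 1 member rose and 0 fell in mmp-1+ cells, where 2.58% of all genes rose and 3.94% fell. At an unadjusted p under 0.05 there were 3, and DESeq2 also called 1, against 8.23% of all genes. For unadjusted p the share of all genes was not computed, here or below. SMED30027739 had 141, 103 and 102 CPM in mmp-1+ cells at 6 h, against 63.1, 36.5 and 66.9 CPM in intact worms. The groups did not overlap, and the log2 change was 1.06 ± 0.23 (SE, edgeR adjusted p = 0.0053). Without intact replicate 2 it was 0.84 and still called. Over all members, 133 of 139 fold changes were positive, with a median of 0.21 against -0.005 for all genes. Without intact replicate 2, the low mmp-1+ library, that median was -0.02.

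From 6 h to 48 h, 20 members fell and 0 rose in mmp-1+ cells, where 5.07% of all genes fell and 4.56% rose. Of those that fell, 5 had d of 2 to 4 and 15 had d under 2, while no member with d of 4 or more was called. At an unadjusted p under 0.05 there were 58 in either direction, and DESeq2 called 28, against 11.4% of all genes. The median log2 fold change of the members was -0.46 against -0.01 for all genes, and 121 of 139 were negative. SMED30027739 then fell to 28.3, 57.1 and 42.3 CPM at 48 h against 141, 103 and 102 CPM at 6 h, a log2 change of -1.44 ± 0.23 (SE, edgeR adjusted p = 0.0003). Its values at 48 h overlapped those of intact worms. SMED30021987 had 16.6, 26.2 and 23.8 CPM at 48 h, against 42.2, 44.5 and 39.0 CPM at 6 h, a log2 change of -0.92 ± 0.22 (SE, edgeR adjusted p = 0.011). SMED30012987 had 10.9, 15.2 and 12.9 CPM at 48 h, against 27.9, 22.7 and 21.8 CPM at 6 h, a log2 change of -0.90 ± 0.24 (SE, edgeR adjusted p = 0.023). Neither gene's groups overlapped.

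That count of 20 rested on single libraries. It was 3 without 48 h replicate 1, 4 without 48 h replicate 3 and 4 without 6 h replicate 1. It was 12 without 6 h replicate 2 and 13 without 6 h replicate 3. Between 6.05% and 7.37% of all genes were called in these settings. The call of SMED30027739 held in all of these, that of SMED30021987 was lost without 48 h replicate 1 (edgeR adjusted p = 0.074), and that of SMED30012987 was lost in 3 of them, with edgeR adjusted p up to 0.11. The members with d of 4 or more were between -0.80 and 0.18 (log2) and were not called, which does not show that they were unchanged: for SMED30019930 the fold change was -0.65 with an SE of 1.01.

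Among the mmp-1- cells, 6 h against intact worms gave 1 member that rose and 5 that fell, where 4.56% of all genes rose and 4.99% fell. The 5 that fell all had d under 2. SMED30027428 had 9.12, 11.6 and 9.14 CPM in mmp-1- cells at 6 h, against 19.3, 23.4 and 20.2 CPM in intact worms, a log2 change of -1.07 ± 0.20 (SE, edgeR adjusted p = 0.0011). Every 6 h library was below every intact one, and by 48 h it was back at 18.1, 17.4 and 21.4 CPM, a log2 change of 0.93 ± 0.20 over 6 h (SE, edgeR adjusted p = 0.0044). Its mmp-1+ means were 56.1 ± 19.7, 60.3 ± 3.63 and 71.5 ± 13.1 CPM in the intact, 6 h and 48 h groups (SD, n = 3 each). The dip was thus measured in mmp-1- cells, and whether it differed between the populations was not tested.

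SMED30002158 had 0.560, 0.808 and 0.901 CPM in mmp-1- cells at 6 h, against 1.72, 2.75 and 1.43 CPM in intact worms, a log2 change of -1.37 ± 0.35 (SE, edgeR adjusted p = 0.016). SMED30018397 had 3.38, 4.00 and 4.09 CPM at 6 h, against 5.54, 8.70 and 5.64 CPM in intact worms, a log2 change of -0.79 ± 0.24 (SE, edgeR adjusted p = 0.040). Without intact replicate 2, without 6 h replicate 1 or with limma neither was called. The call of SMED30018397 was also lost without 6 h replicate 2 or 3 and with the replicate number as a block (edgeR adjusted p = 0.058). The member that rose was SMED30027739, the gene that also rose in mmp-1+ cells: it had 13.2, 16.4 and 17.2 CPM at 6 h, against 8.70, 10.9 and 7.68 CPM in intact worms. The log2 change was 0.78 ± 0.23 (SE, edgeR adjusted p = 0.039). The call was lost without intact replicate 1 or 3 or without 6 h replicate 2 or 3, with an edgeR adjusted p of up to 0.14.

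Members with d of 4 or more depended on 1 library in this contrast. With all libraries, all 17 members with d of 4 or more had positive fold changes at 6 h over intact, between 0.69 and 1.41, and 0 were called. Without mmp-1- intact replicate 2, 25 members were called, 22 higher and 3 lower, where 9.36% of all genes were called. Those higher were all 17 with d of 4 or more and 5 with d of 2 to 4. The fold change of SMED30019930 was 1.13 ± 1.02 (SE, edgeR adjusted p = 0.57) with that library and 5.56 (edgeR adjusted p = 0.00016) without it. At 48 h over intact it was -0.03 with that library and 4.40 without it.

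At 48 h against intact worms, 37 members fell and 0 rose in mmp-1- cells, where 9.85% of all genes fell and 7.74% rose. Of those that fell, 18 were among the 41 with d of 2 to 4 and 19 among the 81 with d under 2, and none was among the 17 with d of 4 or more. At an unadjusted p under 0.05 there were 63 members in either direction, and DESeq2 called 42, against 18.8% of all genes. The median log2 fold change was -0.39 over the members and 0.001 over all genes. SMED30012987 had 0.316, 0.810 and 0.521 CPM in mmp-1- cells at 48 h, against 2.67, 5.40 and 3.77 CPM in intact worms. The log2 change was -2.83 ± 0.32 (SE, edgeR adjusted p = 4e-06), the lowest of the members, and it was called under all 13 alternatives tried. SMED30034552 had 4.23, 8.97 and 6.04 CPM at 48 h, against 19.4, 39.1 and 15.8 CPM in intact worms, a log2 change of -1.95 ± 0.34 (SE, edgeR adjusted p = 0.00038). In both genes every 48 h library was below every intact one.

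SMED30015454 had 7.94, 13.2 and 5.05 CPM at 48 h, against 11.6, 115 and 13.2 CPM in intact worms, a log2 change of -2.42 ± 0.67 (SE, edgeR adjusted p = 0.016). Without intact replicate 2, the library with 115 CPM, the fold change was -0.50 and not called (edgeR adjusted p = 0.54). The call was also lost without 48 h replicate 1 or 3, with limma and in a fit of these groups alone. Without intact replicate 2, 20 members fell and 9 rose, where 15.6% of all genes were called. The 9 were all of the class with d of 4 or more. Without 48 h replicate 1 the count was 18 that fell, where 13.6% of all genes were called.

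At 48 h against 6 h, 31 members fell and 3 rose in mmp-1- cells, where 5.18% of all genes fell and 4.58% rose. Those called lower were 22 of the 41 with d of 2 to 4, 8 of the 81 with d under 2 and 1 of the 17 with d of 4 or more. All 17 of that last class had negative fold changes, between -1.415 and -0.66 with a median of -1.16. That few were called does not show that they were unchanged. The medians were -1.08 for d of 2 to 4 and -0.25 for d under 2. Over all members the median was -0.44, against -0.02 for all genes, and 129 of 139 were negative. SMED30012987 fell to 0.316, 0.810 and 0.521 CPM at 48 h, against 4.15, 3.97 and 4.6 CPM at 6 h, a log2 change of -2.94 ± 0.32 (SE, edgeR adjusted p = 5.2e-06). SMED30028878 had 0.0316, 0.765 and 0.634 CPM at 48 h, against 1.88, 2.93 and 2.15 CPM at 6 h, a log2 change of -2.26 ± 0.61 (SE, edgeR adjusted p = 0.022). SMED30015454 had a log2 change of -2.36 ± 0.67 (SE, edgeR adjusted p = 0.029), and its 48 h values of 7.94, 13.2 and 5.05 CPM lay below the 14.9, 41.8 and 77.6 CPM at 6 h. Without 48 h replicate 1 the calls of SMED30028878 (edgeR adjusted p = 0.096) and SMED30015454 (edgeR adjusted p = 0.11) were lost, and that of SMED30012987 held. Both were also lost with limma and without 6 h replicate 2, and SMED30015454 also without 6 h replicate 3 or 48 h replicate 3.

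The 1 member with d of 4 or more that was called lower was SMED30004922, named after its values were seen. It had 28.2, 58.9 and 40.6 CPM in mmp-1- cells at 48 h, against 86.3, 103 and 151 CPM at 6 h, a log2 change of -1.41 ± 0.36 (SE, edgeR adjusted p = 0.015). The 3 members that rose were SMED30024071, SMED30027428 and SMED30002801, all with d under 2. SMED30002801 had 16.8, 16.5 and 15.7 CPM at 48 h, against 8.92, 7.84 and 9.42 CPM at 6 h, a log2 change of 0.90 ± 0.19 (SE, edgeR adjusted p = 0.0036). SMED30024071 had 6.28, 4.44 and 6.94 CPM at 48 h, against 1.94, 3.32 and 3.90 CPM at 6 h, a log2 change of 0.95 ± 0.29 (SE, edgeR adjusted p = 0.043). The call of SMED30024071 was lost without any of 4 libraries. The count of members called in this contrast was 18 without 48 h replicate 1 and 21 without 48 h replicate 3. Of all genes, 6.29% and 7.01% were called in these settings.

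**Figure D2:**
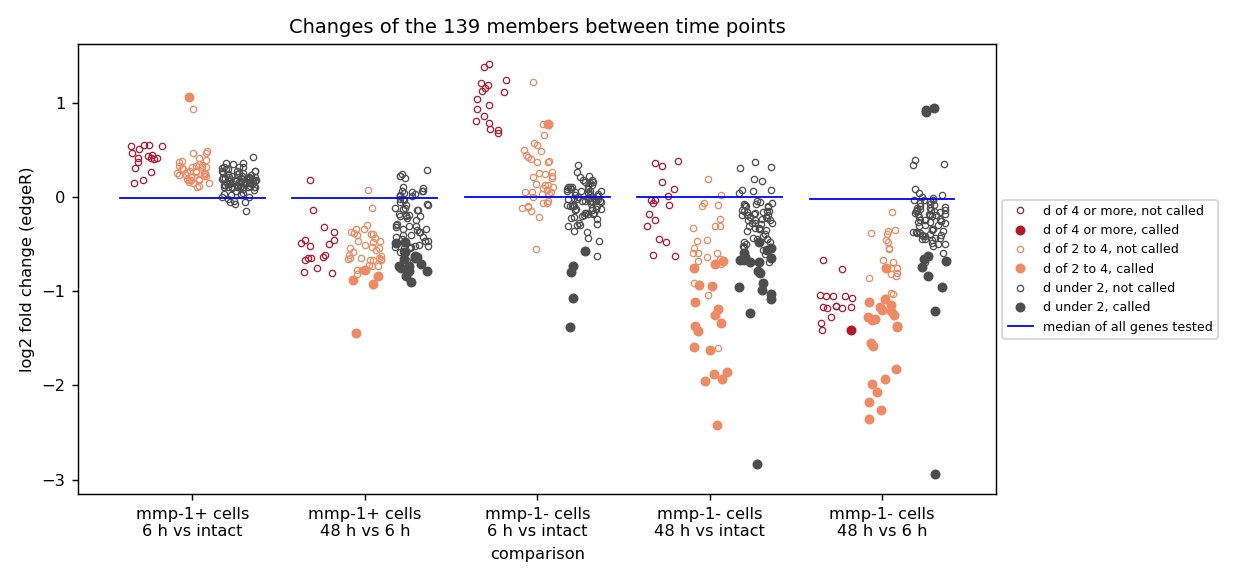
Log2 fold change of each of the 139 members in the 5 contrasts tested, later time over earlier, by d class; filled points were called by edgeR, open points were not, and blue lines are the median of all genes. In mmp-1- cells the 37 members called lower by 48 h against intact and the 31 against 6 h are mostly of the d 2 to 4 and d under 2 classes. At 48 h against 6 h all 17 members with d of 4 or more lie below 0 there, most of them open.

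In the tissue sections all 139 members had at least 1 UMI (unique molecular identifier, a tag that counts each captured molecule once), and 109 had the 200 UMIs over the 4 sections that were asked of a gene. The median member had 870 UMIs and the range was 4 to 210339. Tissue beads numbered 13906 and 12259 in the 48 h sections and 9139 and 14169 in the 6 h sections. Their median UMIs were 937 and 846 at 48 h and 699 and 556 at 6 h. A bead is not a cell and can hold RNA of several. Any 2 sections shared between 3 and 5 bead barcodes.

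Most tissue beads held some RNA of the members, and a small part of the beads held a high share. At least 1 UMI of any member was seen in 86.9% and 85.3% of tissue beads at 48 h and in 83.5% and 80.7% at 6 h. Members gave 1.78% and 2.23% of tissue UMIs in the 48 h sections and 2.13% and 3.55% in the 6 h sections. Beads were ranked by the share of UMIs from the members. The top 10% of tissue beads, called member-rich, were set against the other tissue beads. For the ratio of a member, that member was left out of the ranking. The shares and depths given next used the ranking on all members. As these beads are picked for a high share, the next values describe them and test nothing. Members gave 9.18% and 11.2% of the UMIs in member-rich beads at 48 h and 13.7% and 20.8% at 6 h, against 0.657% and 0.763% in other beads at 48 h and 0.635% and 1.02% at 6 h. Beads outside the tissue had 1.19% and 1.34% at 48 h and 1.66% and 2.63% at 6 h. These shares were above those of the other tissue beads, from which the richest 10% had been taken out. In each section they were below the share of all tissue beads given above. The part of free RNA in them was not tested. Member-rich beads were also deeper, with median UMIs of 1229 and 1223 at 48 h and 832 and 661 at 6 h, against 907 and 813 at 48 h and 686 and 544.5 at 6 h in other beads. The part of depth in these ratios was not tested.

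**Figure D3:**
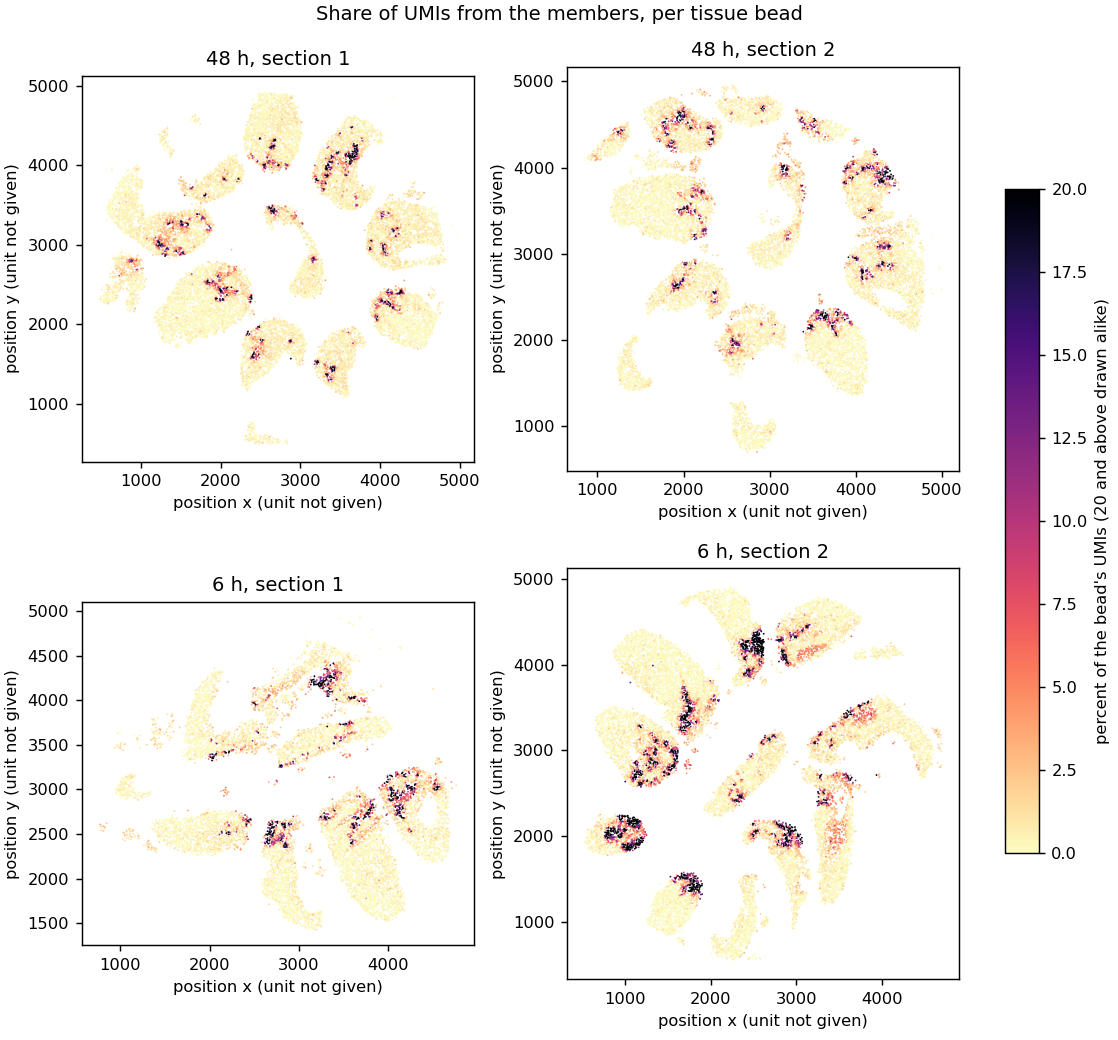
Tissue beads of the 4 sections at their positions (unit not given), coloured by the percentage of the bead's UMIs that came from the 139 members, with 20 and above drawn alike. Dark beads lie in patches at 1 end or side of most pieces of tissue, and large parts of the same pieces are pale.

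Of the 109 members with enough UMIs, 94 were at least 1.5-fold higher in beads rich in the other members in all 4 sections. Of the other 10730 genes, 1.66% were, in beads ranked on all members. None was lower by that measure, against 6.42% of the other genes. The median log2 ratio was 2.25 for members and -0.10 for other genes. All 17 members with d of 4 or more and all 31 of the measured members with d of 2 to 4 were past 1.5-fold, with median log2 ratios of 4.79 and 3.57, as were 46 of 61 with d under 2, with a median of 1.39. The sections were not used to choose the members, but a bead is called rich from the members themselves, so the ratio describes how far they lie together. It is also given for genes with the same sort difference outside the stability limit: 9 of 10 measured genes that were higher at 48 h and 12 of 14 that were lower passed it too, with medians of 2.03 and 2.08. Lying in these beads was therefore not particular to the stable members.

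The members with the highest ratios were not those with the largest d. SMED30011233 had a log2 ratio of member-rich to other beads of 5.21 and 5.39 in the 48 h sections and 5.23 and 5.35 in the 6 h sections. SMED30028565 had 5.41 and 5.05 at 48 h and 5.60 and 5.04 at 6 h. SMED30035476 had between 4.97 and 5.14 in the 4 sections. All 3 belong to the class with d of 2 to 4. In mmp-1+ cells SMED30028565 averaged 3673 ± 1443, 5153 ± 913 and 4203 ± 1106 CPM in the intact, 6 h and 48 h groups, against 260 ± 89.7, 364 ± 64.3 and 207 ± 49.0 CPM in their mmp-1- counterparts (mean ± SD, n = 3 each). The top member, SMED30019930, had 4.72 and 4.58 at 48 h and 5.20 and 4.63 at 6 h.

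One gene stood apart in the class with d under 2. SMED30006806, named after its values were seen, had a smallest d of 1.69 but log2 ratios of 4.72 and 4.67 at 48 h and 5.08 and 4.76 at 6 h, close to those of the top members. At the other end, SMED30024623 (0.78 and 0.35 at 48 h, 1.49 and 1.89 at 6 h) was among the 15 members that did not pass in all sections, and those 15 all had d under 2.

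**Figure D4:**
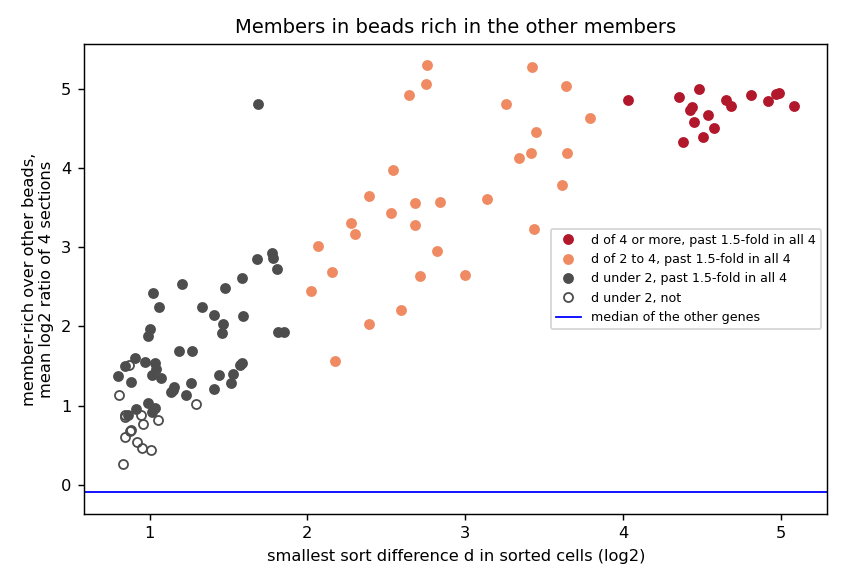
Mean log2 ratio of member-rich to other beads over the 4 sections (vertical axis) against the smallest d in sorted cells (horizontal axis) for the 109 members with at least 200 UMIs; open points missed 1.5-fold in at least 1 section, and the blue line is the median of the other 10730 genes. All points lie above that line, the 3 highest ratios belong to members with d of 2 to 4, and SMED30006806 is high at a d of 1.69.

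Clustering in space was strongest for the members with large d. Moran's I, which is near 0 for a random layout and rises as neighbouring beads share values, had a median of 0.0223 over the 109 members and 0.0056 over the other genes, and 82.4% of other genes lay below the members' median. It was 0.343 for d of 4 or more, 0.0615 for d of 2 to 4 and 0.0106 for d under 2. The 3 highest were SMED30019930 with 0.585, SMED30019357 with 0.573 and SMED30007813 with 0.572. These genes also have many UMIs, and the part of depth in Moran's I was not tested. At least 1 UMI of SMED30019930 was seen in 30.4% and 30.6% of tissue beads at 48 h and in 33.2% and 40.4% at 6 h. Within single pieces of tissue the members' share ran between 0.339% and 11.7%. The centre of their UMIs lay away from the middle of the piece by a median of 0.376 and 0.446 of its radius at 48 h. At 6 h the medians were 0.669 and 0.551. Pieces are beads linked by distance, 11 in each 48 h section and 5 and 11 in the 6 h sections. They were not matched to tail fragments or to the intact animal.

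Distance from the outline set few members apart. The outer 25% of a section's beads by distance from the outline of the tissue, the rim, were compared with the innermost 25%, the interior. The cuts were made over a whole section and not within each piece, so pieces can differ in how many beads of each they hold. The part of differences between pieces in these ratios was not tested. Rim beads had median UMIs of 546 and 400.5 at 48 h and 343 and 371 at 6 h, against 1192.5 and 1069.5 at 48 h and 1017 and 697 at 6 h in the interior. Of the 109 members, 1 was at least 1.5-fold higher in the rim in all 4 sections, against 8.58% of all genes, and 0 were higher in the interior, against 1.32%. The 17 members with d of 4 or more had mean log2 ratios of rim to interior between -0.59 and -0.18, with a median of -0.38. The sections differed here: SMED30019930 had ratios of -1.06 and -0.30 at 48 h and 0.18 and 0.25 at 6 h, so its sign was not the same at both times.

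The member past the limit in the rim was SMED30027062, with log2 ratios of 1.2 and 0.76 at 48 h and 1.59 and 1.56 at 6 h. SMED30034767 had 0.91 and 1.41 at 48 h and 0.33 and 0.80 at 6 h, and SMED30011566 had 0.78 and 0.13 at 48 h and 0.90 and 1.19 at 6 h. Their means, the next highest, were 0.86 and 0.75. The lowest means were -0.68 for SMED30011233, -0.68 for SMED30021268 and -0.65 for SMED30028565. In the 48 h section 1 these were -1.94, -1.24 and -2.32, and in the 6 h section 1 they were 0.27, -0.45 and 0.59. The spread between sections was larger than these means.

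Between the times the sections are 1 block each, so the values are given without a test. Of the 109 members, 5 were at least 1.5-fold higher in both 48 h sections than in both 6 h sections, against 16.2% of all genes, and 4 were lower by that measure, against 2.54%. The median log2 ratio was 0.08 for members and 0.31 for all genes. SMED30019930 gave 1820 and 2474 CPM (UMIs of the gene, with the section total scaled to 1000000) in the 48 h sections, against 3951 and 7903 in the 6 h sections, a mean log2 ratio of -1.40. The widest of their exact Poisson 95% intervals, which cover counting error only, ran from 7853 to 7954 CPM, so the 4 values differ by more than counting error. SMED30005188 gave 933 and 1468 CPM at 48 h, against 1873 and 5021 at 6 h, a mean log2 ratio of -1.39, but its second 48 h section was less than 1.5-fold below its first 6 h section.

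SMED30019680 gave 2583 and 3004 CPM at 48 h, against 2828 and 3589 at 6 h, and SMED30019357 gave 2553 and 3317 at 48 h, against 2240 and 3563 at 6 h. Their mean log2 ratios were -0.19 and 0.04, and in both genes the values of the times overlapped. The lower level at 48 h of SMED30019930 and SMED30005188 was thus not matched by these other much read members. The highest ratios were 0.99 for SMED30001720, with 284 and 263 CPM at 48 h against 140 and 135 at 6 h, and 0.98 for SMED30031360, with 72.1 and 74.1 at 48 h against 36.7 and 37.5 at 6 h. In mmp-1+ cells SMED30031360 averaged 94.5 ± 40, 107 ± 7.63 and 113 ± 33 CPM in the intact, 6 h and 48 h groups (SD, n = 3 each). SMED30027739, which was higher at 6 h than at 48 h in both sorted populations, gave 26.4 and 29.7 CPM at 48 h, against 47.0 and 70.3 at 6 h, a mean log2 ratio of -1.04 and 1 of the 4 that were lower. SMED30002801, which rose in mmp-1- cells and fell in mmp-1+ cells, gave 21.1 and 26.7 CPM at 48 h, against 13.6 and 12.5 at 6 h.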

How the data were processed

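The authors deposited raw counts, without normalization: read counts per gene in the sorted-cell table, and UMI counts per gene and bead in the section files. STAR 2.7.3a, RSEM and Cell Ranger are named without roles, per the submitters' processing notes. For the reference and the counting settings, nothing is given in the sources used here. Libraries of sorted cells carry no molecular identifiers and no strand information, per the labels' protocols, so overlapping or near-identical genes are uncertain. Reads listed as unmapped (12.1% to 16.1%) or multimapping (5.67% to 9.21%) were kept out.

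Members were found by the rule in the report; members, classes of d and lists were chosen with earlier results of these data known. Tests used edgeR 4.0.16 in R 4.3.3: filterByExpr (31435 genes), TMM factors, a mean for each of 6 groups over 18 libraries, quasi-likelihood tests, Benjamini-Hochberg adjustment. The SE is the log2 fold change divided by the square root of F. DESeq2 1.42.0 and limma 3.58.1 were alternatives. p-values measure the spread between these pooled samples. The fit was tested on simulated data.

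In sections, beads of at least 50 UMIs were kept as tissue where the mean of the 20 nearest beads passed Otsu's limit. Pieces of at least 100 beads were outlined on a grid, and Moran's I used the 10 nearest beads. Section values are sums over beads, in CPM. The 2 single-cell samples were not analysed here.

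Genes named were the 10 members with the largest smallest d, the 5 most read in mmp-1+ cells, the 3 on each side of the rule's limits, for each contrast up to 3 highest and 3 lowest of those called, and for sections the extremes of each ratio and of Moran's I. Gene lists by name could not be used because identifiers have no names here.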

Additional observations from a re-analysis of the deposited data

Results flagged for a closer look

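SMED30002801 and SMED30017161 moved in opposite directions in the sorted populations between 6 h and 48 h, with no overlap of libraries on either side. SMED30002801 had 30.2, 46.1 and 38.6 CPM in mmp-1+ cells at 48 h, against 63.2, 57.8 and 56.8 CPM at 6 h, a log2 ratio of mean CPM of -0.63, and was called lower (edgeR adjusted p = 0.031). In mmp-1- cells it had 16.8, 16.5 and 15.7 CPM at 48 h, against 8.92, 7.84 and 9.42 CPM at 6 h, a log2 ratio of 0.904. SMED30017161, named after its values were seen, had 32.6, 45.3 and 37.1 CPM in mmp-1+ cells at 48 h, against 56.8, 50.5 and 50.9 CPM at 6 h, a log2 ratio of -0.46. In mmp-1- cells it had 8.22, 7.62 and 8.32 CPM at 48 h, against 5.51, 6.51 and 6.84 CPM at 6 h, a log2 ratio of 0.357. Neither change of SMED30017161 was called (edgeR adjusted p = 0.16 in mmp-1+ cells and 0.33 in mmp-1- cells). The difference between the populations was not tested for either gene.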

How the results depend on the processing

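The rule gave between 112 and 139 of the 139 members when each of the 18 libraries was left out, 125 with a pseudocount of 5 or a minimum of 20 CPM, 134 with TMM-scaled CPM (where 230 genes passed and 150 were taken) or with reads outside genes in the total, and 138 with a pseudocount of 0.5 or a minimum of 5 CPM. With libraries left out in turn, the members called numbered 1 to 2 in mmp-1+ cells at 6 h over intact, 3 to 24 in mmp-1+ cells at 48 h over 6 h, 3 to 25 in mmp-1- cells at 6 h over intact, 18 to 43 in mmp-1- cells at 48 h over intact and 18 to 31 in mmp-1- cells at 48 h over 6 h. In the same order, 4.33% to 5.41%, 6.05% to 7.37%, 6.59% to 9.36%, 13.4% to 16.3% and 6.29% to 8.36% of all genes were called. For mmp-1- cells at 6 h over intact, 3 members were called without 6 h replicate 1 or without 6 h replicate 2. Fitting the 2 groups alone called 68 members in mmp-1+ cells and 53 in mmp-1- cells at 48 h over 6 h. Of all genes, 10.4% and 7.99% were called in these fits. In mmp-1- cells at 48 h over intact, limma with voom called 24 members, against 18.1% of all genes. The cause was not tested. Scaling by total counts put the median log2 change of all genes at -0.12 in mmp-1+ cells at 6 h over intact and at 0.12 at 48 h over 6 h, with the members' medians at 0.12 and -0.33.

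In the sections a limit of 2-fold in place of 1.5-fold left 0 members past it between the times and 0 in the rim, and a rim of 0.5 times the width left 2. At 2-fold, 3.83% of all genes were higher and 1.16% lower at 48 h. In the rim 5.34% were higher at 2-fold, and 0.166% in the interior. With the narrower rim 8.33% were higher in the rim at 1.5-fold. In member-rich beads, 82 to 98 of the 109 members were past the limit under the alternatives tried, against 94. Of all genes, members included, 1.69% to 2.73% were higher there under these alternatives. Over the genes named and the alternatives, a call was lost 37 times, a ratio without a test moved 6 times, and 210 values did neither. For the counts of members and the median Moran's I, 18 values moved and 85 did not. A count moved if it changed by more than 1.5-fold.

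With the replicate number as a replicate block, 1, 17, 4, 32 and 31 members were called in these contrasts, in the order above. Of all genes, 6.44%, 9.63%, 9.34%, 17.3% and 9.73% were called. Over all genes tested, the deviations of libraries with the same number had correlations of -0.19 to 0.10 in these contrasts. Between the sorted populations they were -0.003 to 0.28, not all above 0.1. The numbers were therefore not taken to pair the libraries. These correlations were not computed for the members alone. In the sections 30 members were under 200 UMIs and were not compared.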

Other observations

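Counted from the outline inwards, beads were split in steps that each hold 20% of a section's beads, cut over all its pieces together. The 17 members with d of 4 or more gave 0.657% of UMIs in the outermost step and 1.43% in the innermost step of the first 48 h section. In the second they gave 1.27% and 1.82%. In the 6 h sections they gave 1.87% and 1.70%, and 3.05% and 3.10%. The 81 members with d under 2 gave 0.389% and 0.395%, and 0.422% and 0.447% in the 48 h sections. The members' centre lay towards the middle of the whole array in 6 of 11 and 4 of 11 pieces at 48 h and in 3 of 5 and 10 of 11 pieces at 6 h.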
